A study of Homo sapiens with 4 samples.

Results

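The ADAM, ADAMTS and ADAMTSL genes, which encode proteins named for a disintegrin and a metalloproteinase domain and their secreted relatives with thrombospondin repeats, were examined in 2 related breast cancer lines, MDA-MB-231 and LM2-4175 (LM2). They were chosen by symbol, as every gene whose name is ADAM, ADAMTS or ADAMTSL followed by a number, which gave 46 of the 57815 genes in the deposited table. RNA-Seq had been done on 2 libraries of each line, 4 in all. MDA-MB-231 is an established human triple-negative breast cancer line, and LM2 is a line isolated from it that spreads to the lung. Both were untreated and grown in the same medium, and each line is a single cultured population, with no animals in these samples. The authors' table holds 1 FPKM (a level of sequenced fragments corrected for transcript length and sequencing depth) for each line, with a lower and an upper bound, and combines its libraries, so no difference below has a replicate check.

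ADAMs are membrane-anchored proteins, and those with an intact zinc-binding site cut other membrane proteins just outside the cell, a process called ectodomain shedding that frees growth factors, cytokines and receptors. ADAMTS proteins are secreted and cut matrix proteins such as proteoglycans and procollagens. ADAMTSL proteins keep the ancillary domains of the ADAMTS family, lack the catalytic domain, and include binding partners of fibrillin microfibrils. In breast cancer, shedding of epidermal growth factor receptor ligands by ADAMs and matrix cleavage by ADAMTS enzymes have both been studied for their part in invasion.

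The zinc-binding site is the feature that divides these families into active and inactive proteins, so its coding sequence is shown for 11 of the expressed proteinases. It was searched for in the coding transcripts of GENCODE 44 on GRCh37 as 11 codons, with histidine at codons 1, 5 and 11 and glutamate at codon 2. The site was present in 12 of 12 ADAMs listed as proteinases and in 19 of 19 ADAMTS genes. It was absent from 8 of 8 ADAMs listed as inactive and from 5 of 5 ADAMTSL genes. The 2 ADAM lists were defined by this site, so their counts check the lists and are no separate result. A gene was counted if at least 1 of its coding transcripts held the site, as did 2 of 7 for ADAM10 and 4 of 13 for ADAM17. Capitals mark codons 1, 2, 5, 8 and 11, and codon 8 is glycine in each sequence printed here.
ADAM8: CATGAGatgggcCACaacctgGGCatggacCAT
ADAM10: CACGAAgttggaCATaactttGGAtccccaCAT
ADAM12: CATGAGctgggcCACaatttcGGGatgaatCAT
ADAM15: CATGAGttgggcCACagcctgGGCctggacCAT
ADAM17: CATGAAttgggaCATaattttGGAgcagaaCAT
ADAM19: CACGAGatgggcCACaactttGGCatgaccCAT
ADAMTS3: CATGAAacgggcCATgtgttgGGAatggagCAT
ADAMTS6: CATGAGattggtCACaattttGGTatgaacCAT
ADAMTS7: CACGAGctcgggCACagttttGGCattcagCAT
ADAMTS12: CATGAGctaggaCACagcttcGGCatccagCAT
ADAMTS17: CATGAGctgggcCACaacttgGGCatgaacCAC
These lie on GRCh37 at chr10:135085384-135085416 (minus strand) in ADAM8, chr10:127782628-127782660 (minus) in ADAM12, chr1:155029471-155029503 (plus) in ADAM15, chr2:9650207-9650239 (minus) in ADAM17 and chr5:156932742-156932774 (minus) in ADAM19, each within 1 coding exon. In the others the stretch crosses an intron, at chr15:58920080-58925424 (minus) in ADAM10, chr4:73185177-73185591 (minus) in ADAMTS3, chr5:64595943-64625221 (minus) in ADAMTS6, chr15:79080701-79082047 (minus) in ADAMTS7, chr5:33649787-33658305 (minus) in ADAMTS12 and chr15:100695510-100739539 (minus) in ADAMTS17. Over all 31 genes with the site, codon 8 was glycine in 26 and asparagine in 4, which were ADAMTS1, ADAMTS4, ADAMTS9 and ADAMTS15. These 4 all belong to the hyalectanases, the ADAMTS enzymes that cut aggrecan and versican.

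Of the 46 genes, 23 reached 0.5 FPKM as a mean of both lines, which is 50% of them, against 24.1% of all genes in the table (13911 genes). These shares are not of like sets, since 44 of the 46 genes have a coding transcript. The table also holds many non-coding genes and pseudogenes, and 31175 of its genes were at 0 in both lines. Of the 13911 genes, 12082 were protein-coding, so the 24.1% is no measure for protein-coding families. They were ADAM8, ADAM9, ADAM10, ADAM11, ADAM12, ADAM15, ADAM17, ADAM19, ADAM22, ADAM23 and ADAM28, ADAMTS1, ADAMTS3, ADAMTS6, ADAMTS7, ADAMTS9, ADAMTS12, ADAMTS15, ADAMTS16 and ADAMTS17, and ADAMTSL1, ADAMTSL4 and ADAMTSL5. A difference was called where the levels, with 1 FPKM added to both values, lay at least 1.5-fold apart and the bounds of the lines did not overlap. By this rule ADAM23, ADAMTS1 and ADAMTS3 were called higher, 3 of 23 or 13%, against 4.67% of all genes tested. ADAM10 and ADAMTS15 were called lower, 2 of 23 or 8.7%, against 4.61% of all genes tested. Counts this small describe these genes only, and do not set the families apart from other genes. A further 6 genes were past 1.5-fold with overlapping bounds, so that 7 were higher and 4 lower on fold alone, against 10.3% and 11.8% of all genes tested. The remaining 12 genes were within 1.5-fold.

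**Figure D1:**
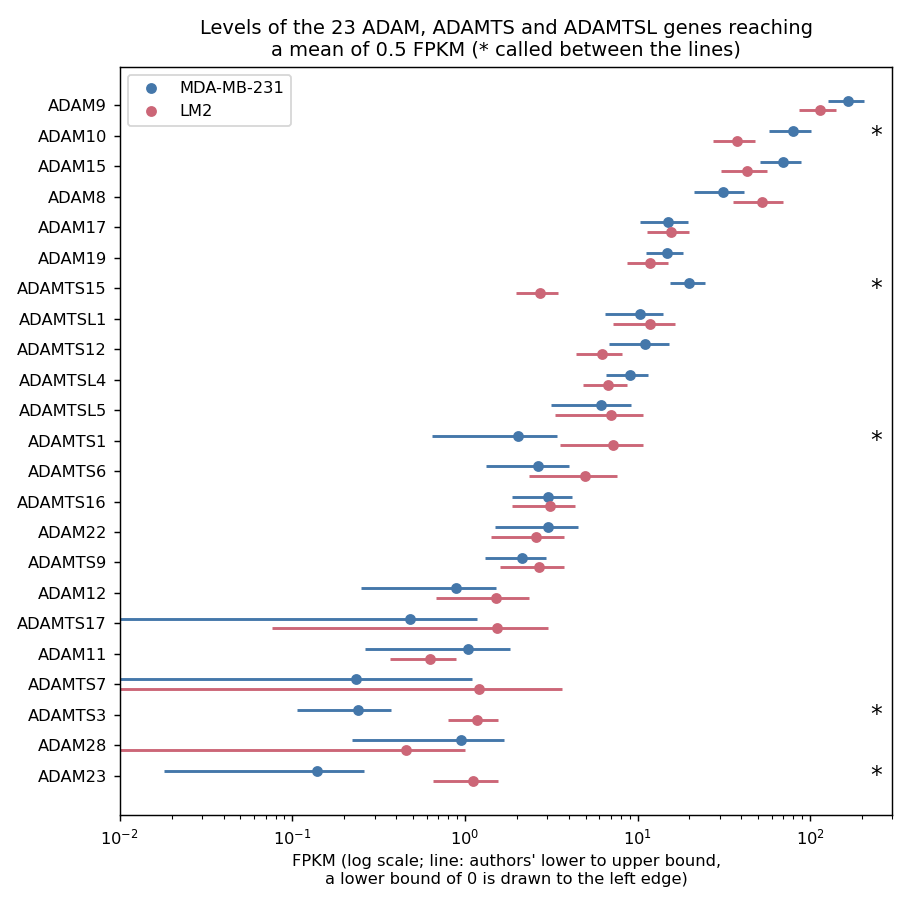
FPKM in MDA-MB-231 and LM2 of the 23 genes that reached a mean of 0.5 FPKM, on a log axis. Points are the authors' FPKM of each line and lines run from the lower to the upper bound. Asterisks mark the 5 called genes, among which ADAM10 and ADAMTS15 sit lower in LM2 and ADAM23, ADAMTS1 and ADAMTS3 higher.

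Calls were found in the ADAM family (1 higher and 1 lower of 11 tested) and in the ADAMTS family (2 higher and 1 lower of 9 tested), and the 3 ADAMTSL genes tested had none. The median log2 fold change over the 23 genes was 0.05, beside -0.04 over all genes tested. The filter itself bears on these counts, since 4 genes (ADAM23, ADAMTS3, ADAMTS7 and ADAMTS17) reached a mean of 0.5 FPKM through their LM2 value alone and 1 (ADAM28) through its MDA-MB-231 value alone. The 11 genes at 5 FPKM or more had a median of -0.38, with 7 lower and 4 higher, and both genes called lower and none called higher were among them. Over all 9519 genes tested at that level the median was -0.08, and 321 were called higher and 443 lower. Lower calls were thus also the more frequent among abundant genes in general. The 17 tested genes with the zinc-site codons held 2 higher and 2 lower calls, and the 6 without them held 1 higher call. These counts by family and by site are too small to set beside the 4.67% and 4.61% of all genes tested.

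**Figure D2:**
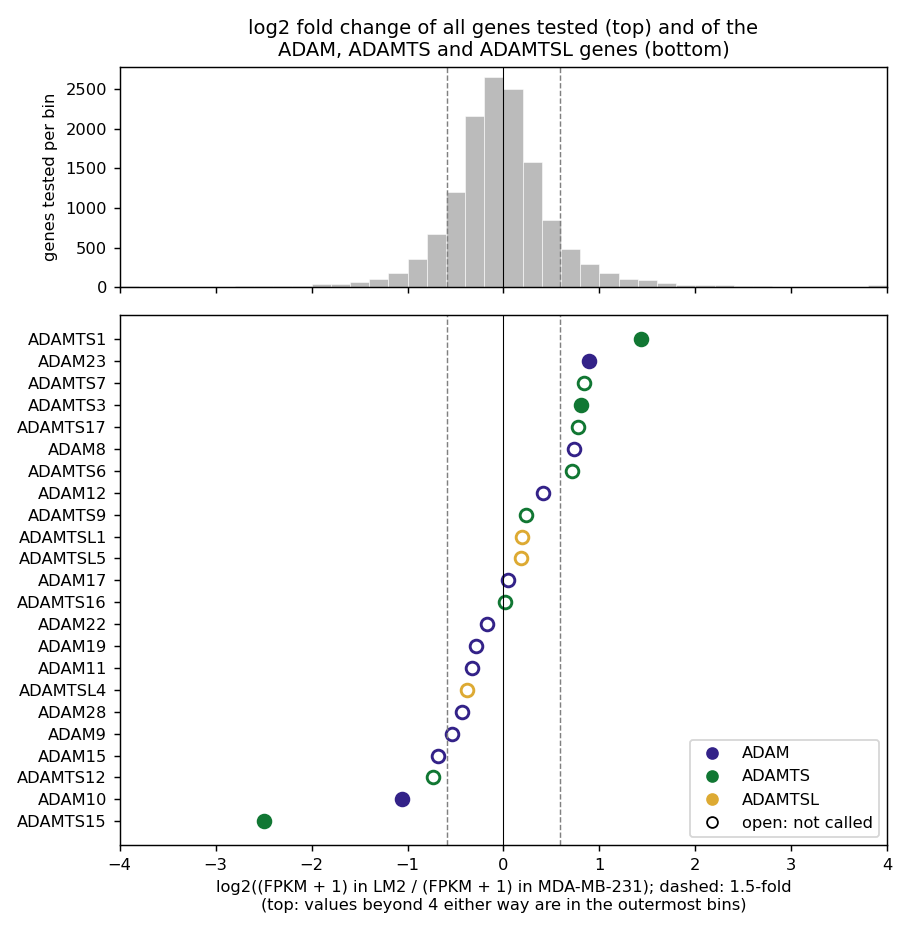
Distribution of log2 fold changes, LM2 over MDA-MB-231 with 1 FPKM added to both values, for all 13911 genes tested (top), and the fold change of each of the 23 genes by family (bottom). Filled points are the 5 called genes, and on this scale ADAMTS15 lies lowest at -2.50 and ADAMTS1 highest at 1.43.

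ADAM9, ADAM10 and ADAM15 were the highest of the 46 genes in MDA-MB-231, and all had lower values in LM2. ADAM10, the main shedding enzyme of Notch receptors, N-cadherin and other membrane proteins, stood at 79.4 FPKM in MDA-MB-231 (bounds 57.89 to 100.9) and at 37.68 FPKM in LM2 (27.37 to 47.99). The bounds were apart, and the level was 2.11-fold lower in LM2, with an approximate 95% interval of 1.44 to 3.07 that takes the distance to the upper bound as 2 standard errors. The gene lies at chr15:58881008-59041990 on the minus strand of hg19, and 0.9% of its exon bases overlap another gene. ADAM9, which sheds several growth factor ligands and binds integrins, had 166.5 FPKM (127.2 to 205.7) and 114 FPKM (86.38 to 141.7), a 1.46-fold lower value (1.05 to 2.03) that stayed under the 1.5-fold limit. ADAM15, a proteinase with an integrin-binding motif in its disintegrin domain, had 69.91 (51.35 to 88.47) and 43.36 FPKM (30.59 to 56.13). Its 1.61-fold lower value (1.09 to 2.38) had overlapping bounds and was not called.

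ADAM8 was the one abundant ADAM with a higher value in LM2 past 1.5-fold. ADAM8, known from leukocytes and from invasive breast tumours, stood at 31.22 FPKM in MDA-MB-231 (21.22 to 41.23) and at 52.54 FPKM in LM2 (35.88 to 69.21), a 1.68-fold higher value (1.08 to 2.62) with overlapping bounds. ADAM17, the tumour necrosis factor convertase and main sheddase of several epidermal growth factor receptor ligands, had 15.03 FPKM (10.36 to 19.71) and 15.62 (11.39 to 19.84). The ratio was 1.04 with an interval of 0.694 to 1.56, so a change of 1.5-fold upwards lies inside it, and 11.7% of the exon bases overlap other genes, IAH1 among them. ADAM19, a sheddase of neuregulins, had 14.77 (11.19 to 18.36) and 11.87 FPKM (8.7 to 15.03), an LM2 over MDA-MB-231 ratio of 0.803 (0.564 to 1.14). ADAM12, which is often raised in breast tumours, was low at 0.8859 FPKM (0.2501 to 1.522) and 1.508 (0.6762 to 2.34). ADAM28, which is best known from lymphocytes, had 0.9545 (0.2216 to 1.687) and 0.4551 FPKM (0 to 1.005). Bounds overlapped between the lines for each of these 5 genes.

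Ordered by level in MDA-MB-231, ADAM9 came first, followed by ADAM10, ADAM15, ADAM8 and ADAMTS15. In LM2 the order was ADAM9, ADAM8, ADAM15, ADAM10 and ADAM17. Most neighbours in these orders were not apart beyond their bounds: of 22 neighbouring pairs, 2 were apart in each line, namely ADAM9 from ADAM10 and ADAM15 from ADAM8 in MDA-MB-231, and ADAM9 from ADAM8 and ADAM10 from ADAM17 in LM2. ADAM8 moved from rank 4 to rank 2, ADAM10 from 2 to 4, ADAMTS15 from 5 to 14 and ADAMTS1 from 16 to 8.

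Among the ADAMs without a zinc-binding site, which act as receptors and adhesion proteins, ADAM23 was called. ADAM23, a neuronal integrin-binding protein that is silenced in many tumours, stood at 0.1391 FPKM in MDA-MB-231 (0.01801 to 0.2603) and at 1.108 FPKM in LM2 (0.6556 to 1.56). The ratio was 7.96 with an interval of 3.1 to 20.4, while with 1 FPKM added the log2 fold change was 0.89, since the added value shrinks the change of low genes. The gene lies at chr2:207308256-207485851 on the plus strand, and its mean of 0.6235 FPKM was the lowest of the 23. ADAM22, the LGI1 receptor of neurons, had 3.018 (1.491 to 4.545) and 2.582 FPKM (1.408 to 3.756), and ADAM11 had 1.041 (0.2651 to 1.816) and 0.6268 FPKM (0.3683 to 0.8853). Neither differed beyond its bounds.

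The hyalectanases held a call in each direction. ADAMTS15, which cuts aggrecan and versican and is lost in several tumours, stood at 19.97 FPKM in MDA-MB-231 (15.37 to 24.58) and at 2.711 FPKM in LM2 (1.972 to 3.449). This level was 7.37-fold lower (5.19 to 10.5). With 1 FPKM added its log2 fold change was -2.50, the largest in size of the 23 genes on that scale, whereas without the added value ADAM23 had a larger ratio (7.96). ADAMTS1, which cuts aggrecan and versican and has been tied to metastasis of breast cancer, had 2.03 FPKM (0.6424 to 3.418) and 7.164 (3.548 to 10.78). Its level was 3.53-fold higher in LM2 (1.53 to 8.11), with the upper bound in MDA-MB-231 just below the lower bound in LM2. ADAMTS9, a hyalectanase also needed for cilium formation, had 2.132 (1.31 to 2.954) and 2.672 FPKM (1.592 to 3.751), with overlapping bounds. ADAMTS15 lies at chr11:130318540-130346540 on the plus strand and ADAMTS1 at chr21:28208074-28217728 on the minus strand, and neither has exon bases that overlap another gene.

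ADAMTS3, a procollagen N-proteinase that also takes part in the activation of VEGF-C, had 0.2386 FPKM (0.1062 to 0.371) and 1.175 (0.7963 to 1.555). The ratio was 4.93 (2.63 to 9.24), and the gene, at chr4:73146686-73434938 on the minus strand, was called higher (log2 fold change 0.81). ADAMTS14, of the same group, went the other way at 0.6991 (0.4045 to 0.9937) and 0.2854 FPKM (0.1474 to 0.4234), with a mean of 0.4922 FPKM just below the filter and with bounds that overlapped slightly. The pair that cuts cartilage oligomeric matrix protein had no call. ADAMTS12 had 11.02 (6.881 to 15.17) and 6.241 FPKM (4.392 to 8.09), 1.77-fold lower (1.11 to 2.82), and ADAMTS7 had 0.2327 (0 to 1.106) and 1.208 FPKM (0 to 3.64). ADAMTS7 has pseudogene copies in the table, ADAMTS7P4 among them at 0.2891 and 0.4853 FPKM, so its reads may be divided between near-identical genes and its value is uncertain.

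The other ADAMTS genes include relatives that act on fibrillin microfibrils. ADAMTS6, which limits fibrillin microfibril assembly, had 2.652 FPKM (1.32 to 3.984) and 4.984 (2.359 to 7.608), a ratio of 1.88 (0.921 to 3.83). ADAMTS17, in which mutations cause a short-stature syndrome with lens dislocation, had 0.4834 (0 to 1.169) and 1.544 FPKM (0.07584 to 3.013). ADAMTS16 was level at 3.027 (1.879 to 4.175) and 3.094 FPKM (1.868 to 4.32), a ratio of 1.02 (0.597 to 1.75). No gene of this group had bounds apart.

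Of the ADAMTS-like genes, ADAMTSL1 had 10.28 (6.474 to 14.08) and 11.83 FPKM (7.183 to 16.48), and ADAMTSL5 had 6.132 (3.145 to 9.12) and 7.063 FPKM (3.342 to 10.78). ADAMTSL4, a fibrillin-1 binding protein of the lens suspension, had 9.042 (6.605 to 11.48) and 6.734 FPKM (4.803 to 8.666). Bounds overlapped for all 3. In GENCODE 44, 42.5% of ADAMTSL4 exon bases overlap other genes, MCL1 among them. The use of strand in counting is not stated, so reads from those bases may not be told apart from theirs.

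The 23 genes below 0.5 FPKM included 4 listed at 0 in both lines, which were ADAM2, ADAM6, ADAM18 and ADAM30. A further 14 were above 0 and under 0.1 FPKM in both lines, and 5 reached 0.1 FPKM in a line. The lower bound was 0 in both lines for 19 of the 23. ADAMTS14, described above, lay just below the filter, and the next was ADAMTSL3, well below it at 0.1069 and 0.2947 FPKM (mean 0.2008). ADAM23 and ADAM28 were the nearest above it, with means of 0.6235 and 0.7048 FPKM. The table gives no read counts, so the number of reads behind a gene's value is not known from it, and no upper limit is given for a value of 0. The upper bound lay 27.1% and 28.7% above the FPKM (medians in MDA-MB-231 and LM2) for the 11 genes at a mean of 5 FPKM or more. It lay 50.6% and 50.5% above it for the 7 genes between 1 and 5 FPKM, and 76.8% and 41.2% for the 5 genes between 0.5 and 1 FPKM, so the bounds were narrowest for the most abundant genes in both lines.

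Summed over all 46 genes, the level was 451.4 FPKM in MDA-MB-231 and 338.8 FPKM in LM2, a ratio of 0.751. From the bounds, with the errors of the genes taken as independent, 2 standard errors of these sums came to 50.61 and 37.63 FPKM. Errors that genes of the same libraries share are not covered, here or in the hyalectanase sum below. ADAM9 made up 36.9% of the summed level in MDA-MB-231 and 33.7% in LM2, while ADAM10 went from 17.6% to 11.1% and ADAM8 from 6.92% to 15.5%. Within the ADAMTS family, whose sum was 42.66 and 31.24 FPKM, ADAMTS15 went from 46.8% to 8.68% and ADAMTS1 from 4.76% to 22.9%. ADAMTS12 held 25.8% and 20% of that sum, and ADAMTS6 6.22% and 16%. The hyalectanase sum was 24.2 FPKM (2 standard errors, 4.879) and 12.59 FPKM (3.85), a ratio of 0.52. As these are bulk samples, fewer cells that express a gene and less RNA per cell cannot be told apart.

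**Figure D3:**
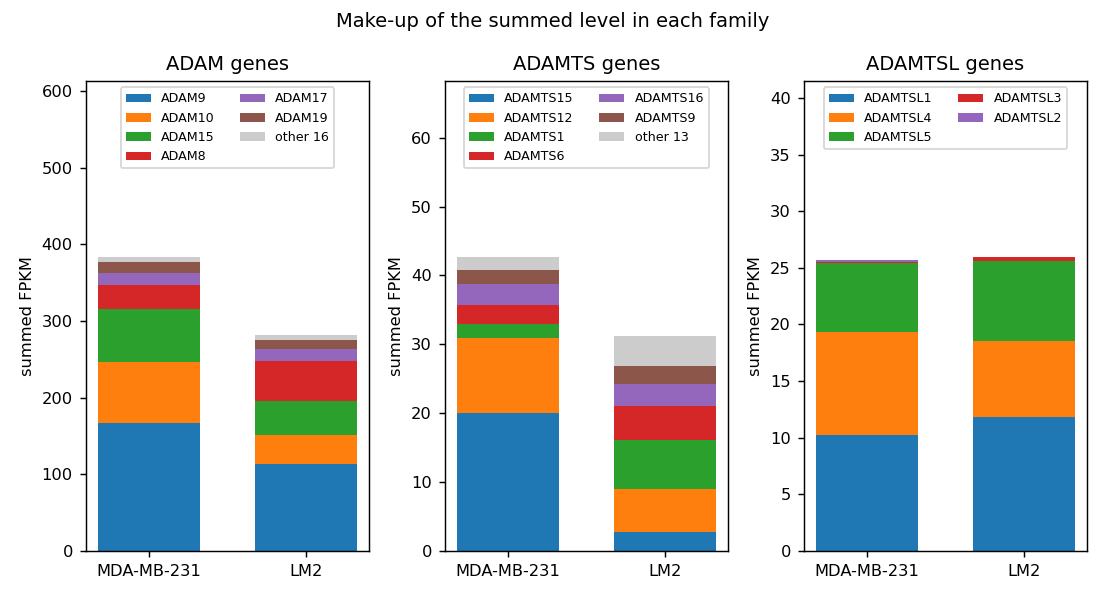
Summed FPKM of the ADAM, ADAMTS and ADAMTSL genes in MDA-MB-231 and LM2 (1 panel per family, each with its own scale), as stacked bars split by gene. As a share of the bar, in the ADAM family ADAM8 goes from 8.15% to 18.7% and ADAM10 from 20.7% to 13.4%, and in the ADAMTS family ADAMTS15 goes from 46.8% to 8.68%.

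The identity of the cells was checked on marker lists. VIM was at 1355 and 1768 FPKM, and ESR1 and PGR, the oestrogen and progesterone receptor genes, were under 0.1 FPKM in both lines. ERBB2, the HER2 receptor gene, whose amplification is absent by definition from triple-negative tumours, was at 34.95 (20.88 to 49.02) and 22.76 FPKM (12.81 to 32.72), with overlapping bounds. The luminal keratins KRT8 and KRT18 were called lower in LM2, KRT8 at 625.7 and 180.2 FPKM, as was EPCAM at 12.26 and 4.928 FPKM. Of the 9 breast cancer line markers, 7 were tested, with 6 lower in LM2 and 1, VIM, higher. The 3 called lower were 42.9% of those tested, against 4.61% of all genes tested, and describe these markers only. Of 7 white blood cell markers 1 reached 0.5 FPKM, their summed level was 1.764 and 2.018 FPKM, and CD3E and NKG7 were at 0. Of 7 fibroblast and endothelial markers found, 3 reached 0.5 FPKM, with a sum of 14.13 FPKM in MDA-MB-231 and 5.094 in LM2. PDGFRB (9.444 and 1.912 FPKM) and LUM (1.337 and 0.1779 FPKM) were called lower among these, and their part in the results above was not tested.

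The other genes of the pathway were taken from lists of maturation factors, inhibitors and substrates. Of 50 genes tested, 4 were called higher (8%, against 4.67% of all genes tested) and 8 lower (16%, against 4.61%), and their median log2 fold change was -0.19. In TPM 7 were called lower, and at 2-fold 3 were called higher and 6 lower. With a mean of at least 1 FPKM, 44 were tested, of which 3 were called higher and 8 lower. AREG, 1 of the 8, is uncertain for the reason given below. The lists were chosen with earlier results of these data known, so these shares describe the listed genes only and do not set the pathway apart. None of the 13 maturation and trafficking genes tested was called. FURIN, the convertase that removes the prodomain of many ADAM and ADAMTS proteins, stood at 32.88 FPKM in MDA-MB-231 (24.17 to 41.59) and at 46.32 FPKM in LM2 (34.32 to 58.32). RHBDF2, which carries ADAM17 to the cell surface, had 20.37 (11.28 to 29.46) and 17.34 FPKM (10.16 to 24.51). Bounds overlapped for both genes. Of the 5 inhibitors tested 1 was called, TIMP1, at 394.9 FPKM (286.8 to 502.9) and 199.7 (143.9 to 255.4), which inhibits ADAM10 among many metalloproteinases. TIMP3, the main tissue inhibitor of ADAM17 and of ADAMTS enzymes, had 83.01 (64.18 to 101.8) and 52.52 FPKM (40.63 to 64.4), with bounds that overlapped by a narrow margin.

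Among the membrane proteins that ADAMs shed, 3 of 25 genes tested were called higher (12%, against 4.67% of all genes) and 4 lower (16%, against 4.61%). These shares too describe only the listed genes. The filter bears on them, since among the called genes IL6R reached a mean of 0.5 FPKM through its LM2 value alone. CX3CL1 did so through its MDA-MB-231 value alone. EREG, an epidermal growth factor receptor ligand released mainly by ADAM17, stood at 4.452 FPKM in MDA-MB-231 (3.216 to 5.688) and at 36.33 FPKM in LM2 (27.68 to 44.99), while AREG, a ligand released the same way, had 7.085 (4.821 to 9.348) and 1.144 FPKM (0.5818 to 1.705). These neighbouring genes were called in opposite directions, and AREG is uncertain because the table also lists a near-identical copy, AREGB, with which it may share reads. HBEGF, another ligand of this receptor, was called higher at 30.72 and 63.3 FPKM, and IL6R, the interleukin 6 receptor, at 0.3397 and 1.628 FPKM. CX3CL1, a membrane-bound chemokine shed by ADAM10 and ADAM17, was called lower at 5.312 and 0.3302 FPKM. The others called lower were PRNP, the prion protein gene, at 272.8 and 135.4 FPKM, and NRG1, the neuregulin gene, at 27.19 and 13.82 FPKM.

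Of the matrix proteins that ADAMTS enzymes cut or bind, 7 of 15 genes were tested, and 1 was called higher and 3 lower, too few to set beside the 4.67% and 4.61% of all genes. COL1A1, which encodes a chain of type I procollagen, stood at 3.163 FPKM in MDA-MB-231 (0.9023 to 5.423) and at 30.98 FPKM in LM2 (15.49 to 46.47). COL1A2, which encodes the other chain, went from 2.764 (1.831 to 3.697) to 0.1135 FPKM (0 to 0.3501). COL1A2 passed the filter through its MDA-MB-231 value alone. COL5A1 was called lower at 48.51 and 13.8 FPKM, and THBS1, the thrombospondin 1 gene, at 351.6 and 46.36 FPKM. VCAN, the versican gene and a substrate of ADAMTS1 and ADAMTS15, was low at 0.2634 (0 to 0.5737) and 0.8565 FPKM (0.2146 to 1.498) and was not called.

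**Figure D4:**
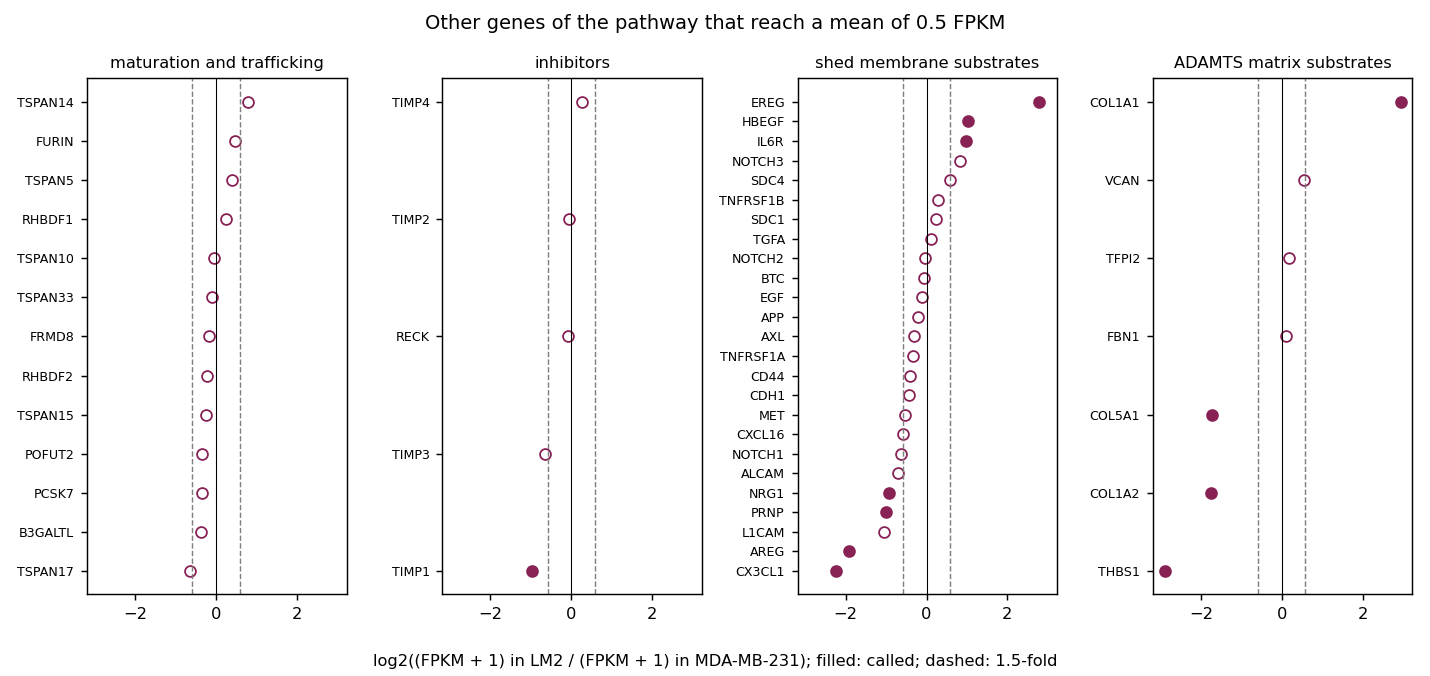
Log2 fold change, LM2 over MDA-MB-231 with 1 FPKM added to both values, of the pathway genes tested, by list (maturation and trafficking, inhibitors, shed membrane substrates, matrix substrates). Filled points mark called genes, and the calls lie in the 3 lists other than maturation and trafficking, from THBS1 at -2.90 to COL1A1 at 2.94.

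Promoter sequences are shown for the called genes with an entry in the RefSeq table, as the windows in which motifs were searched. Each runs from 250 bases before to 50 bases after the gene start on GRCh38.p14, which is a later build than that of the expression table. Capitals mark a GC box (GGGCGG), the core of the cyclic AMP response element (TGACG, the CRE core) and an E-box (CACGTG), on either strand, and in ADAM10 the CRE core and the E-box overlap.
ADAM10: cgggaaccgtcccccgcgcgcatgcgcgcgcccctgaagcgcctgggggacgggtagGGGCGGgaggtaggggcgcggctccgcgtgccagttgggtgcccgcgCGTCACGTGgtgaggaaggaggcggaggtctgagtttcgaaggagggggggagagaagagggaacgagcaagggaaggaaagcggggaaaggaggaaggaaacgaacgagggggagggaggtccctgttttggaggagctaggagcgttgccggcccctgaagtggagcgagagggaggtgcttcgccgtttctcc
ADAM23: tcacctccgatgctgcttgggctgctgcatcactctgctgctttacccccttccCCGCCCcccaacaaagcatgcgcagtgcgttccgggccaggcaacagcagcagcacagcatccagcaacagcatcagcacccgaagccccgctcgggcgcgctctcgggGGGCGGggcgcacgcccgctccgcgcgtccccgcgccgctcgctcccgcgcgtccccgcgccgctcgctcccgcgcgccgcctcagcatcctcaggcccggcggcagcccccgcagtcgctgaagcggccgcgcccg
ADAMTS3: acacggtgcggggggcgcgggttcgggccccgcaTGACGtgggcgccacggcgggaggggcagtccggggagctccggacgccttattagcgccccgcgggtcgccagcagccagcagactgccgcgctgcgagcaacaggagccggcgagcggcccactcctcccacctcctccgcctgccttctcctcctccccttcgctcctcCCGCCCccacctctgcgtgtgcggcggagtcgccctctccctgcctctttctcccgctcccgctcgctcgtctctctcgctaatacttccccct
The windows are chr15:58749658-58749957 (minus strand) for ADAM10, chr2:206443282-206443581 (plus) for ADAM23 and chr4:72569172-72569471 (minus) for ADAMTS3. Counted from the start, the marked motifs begin at -193, -146 and -143 in ADAM10, at -196 and -87 in ADAM23, and at -216 and -44 in ADAMTS3. Of the 46 genes, 29 matched an entry in the table. For these 1 entry per gene was used, whereas the shares of all promoters count every entry, so the units differ. A GC box was present in 22 of the 29, against 45% of all 35116 promoters of the same length, the CRE core in 6 of 29 against 24.6%, and the E-box in 4 of 29 against 7.26%. The AP-1 motif (TGANTCA) was found in ADAMTS12 alone, 1 of 29, against 7.71% of all promoters, and a TATA box (TATAAA) in 3 of 29 against 11.5%. The NF-kB motif was found in ADAMTSL2 alone, 1 of 29, against 5.91%. Median GC content was 73.3% in the 16 promoters of genes that reached 0.5 FPKM and 70.7% in the 13 others, beside 58.7% over all promoters. A motif match describes the letters of the window and no binding.

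The position of the called genes was set beside the fold changes of protein-coding genes within 3 Mb. Around ADAMTS15, 8 of 10 tested neighbours were lower in LM2 (median log2 fold change -0.19, 1 call), and around ADAM10, 7 of 19 were lower and 12 higher, with a median of 0.07, none called lower and 2 called higher. Around ADAMTS1, 3 of 11 neighbours were higher and 1 was called lower, and the median was -0.31, opposite in sign to ADAMTS1 itself. Around ADAM23, 13 of 18 were higher, with a median of 0.22, 2 called higher and 1 called lower. Around ADAMTS3, 14 of 19 neighbours were higher, with a median of 0.45, and 6 were called higher, among them the chemokine genes IL8 (log2 fold change 5.28), CXCL1 (4.96), CXCL3 (3.82) and CXCL2 (3.18), as well as EREG, while AREG was called lower. None of these calls lay within 1 Mb of ADAMTS3, where 0 of 4 neighbours were called. The median of all protein-coding genes tested was -0.05, and of all genes tested 4.67% were called higher and 4.61% lower. Without regard to calls, 6326 of all 13911 genes tested had higher values in LM2 and 7585 had lower values.

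**Figure D5:**
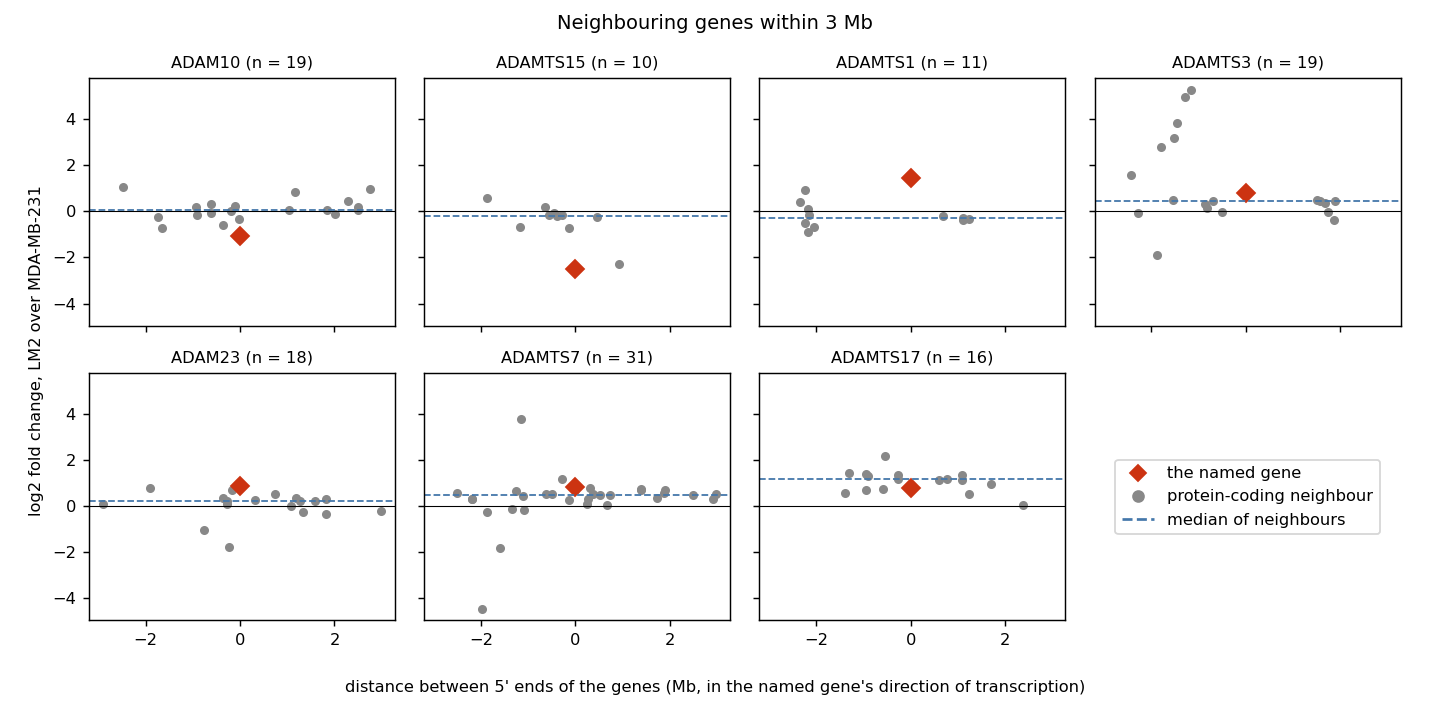
Log2 fold change, LM2 over MDA-MB-231, of tested protein-coding genes within 3 Mb of each called gene, and of ADAMTS7 and ADAMTS17, which were not called and were added after their values were seen. The horizontal axis is the distance from the named gene (diamond) in Mb and dashed lines are medians of the neighbours, with genes upstream of ADAMTS3 reaching 5.28 and NTM near ADAMTS15 at -2.29.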

How the data were processed

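Total RNA of untreated MDA-MB-231 and LM2-4175 cells, 2 libraries per line, was sequenced by the authors as paired reads of 150 bases after TruSeq preparation. Per the study's methods and processing notes, reads were aligned to hg19 with TopHat 2.0 (default parameters), and GENCODE 19 genes were quantified with Cufflinks and Cuffdiff. The FPKM values, bounds and status per line are used as the authors deposited them, with the libraries of a line combined. Library normalization, the level of the bounds and the use of strand are not given in the sources used here, and the depth per library cannot be read from FPKM.

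Genes were taken by symbol. Genes with a mean of at least 0.5 FPKM and status OK were tested, log2 fold changes were computed after adding 1 FPKM, and a gene was called at 1.5-fold with bounds apart. With 1 value per line there is no test and no p-value. Ratio intervals are 95% normal intervals of the log ratio, with the upper bound taken as 2 standard errors above the FPKM, and cover only the error in those bounds. All 23 genes at or above 0.5 FPKM are named, with the 2 nearest below and any whose larger value reached 0.5 FPKM. Of the pathway lists, called genes are named (at most 6 a list), plus TIMP3, RHBDF2, FURIN and VCAN. Other genes were named where a result turned on them, the neighbours of ADAMTS3 after their values were seen. A marker of the white blood cell list is not reported here. The genes and lists were chosen with earlier results of these data known. Exon overlap and coding sequences came from GENCODE 44 on GRCh37 (45 of the 46 genes matched), and promoters from RefSeq on GRCh38.p14. The call rule was run on simulated data for genes of at least 0.5 FPKM in MDA-MB-231, with noise drawn from the same bounds. Such data cannot check the bounds themselves, error between libraries or genes low in MDA-MB-231. Alternatives were other pseudocounts, filters, folds, error rules, windows and TPM scaling. Python 3.11.15, NumPy 2.4.6, pandas 2.3.3 and Matplotlib 3.10.9 were used.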

Additional observations from a re-analysis of the deposited data

How the results depend on the processing

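The 3 higher calls (ADAM23, ADAMTS1 and ADAMTS3) and the 2 lower calls (ADAM10 and ADAMTS15) were the same genes with 0.1 FPKM added, with nothing added, without the filter, after scaling to TPM, after centring on the median of all genes, and with bounds apart as the only rule. The filters, folds and error rules leave each fold change as it was, so only the calls could move under them. The number called higher was 1 (ADAMTS1) with a mean of at least 1 FPKM or with 2-fold, and 0 with a mean of at least 5 FPKM, since ADAM23 and ADAMTS3 are low genes and ADAMTS1 has a mean under 5. On 1.5-fold alone 7 were higher and 4 lower (1434 and 1640 of all genes, against 649 and 641). With a difference past the 95% normal limit of its standard error 4 were higher and 5 lower (1054 and 1264 of all genes), the added genes being ADAM8, ADAM9, ADAM15 and ADAMTS12. Over all genes, 321 were higher and 443 lower with a mean of at least 5 FPKM (9519 genes), and 450 and 403 were higher and lower at 2-fold. In TPM the sums were 713.4 and 566.7, with a ratio of 0.794. Within 1 Mb the neighbours of ADAMTS1 had a median of -0.20 (1 gene) and those of ADAMTS3 0.24 (4 genes). Of the 6 higher calls made around ADAMTS3 with the 3 Mb window, none remained within 1 Mb. No paired analysis was possible because the libraries of each line are combined in 1 value, and for the same reason no library could be left out. Bounds were widest for the genes between 0.5 and 1 FPKM in MDA-MB-231. In LM2 they were widest between 1 and 5 FPKM (median upper distance 50.5%, against 41.2% between 0.5 and 1 FPKM). The part of depth in this was not tested.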

Other observations

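The table also holds 20 genes whose names contain ADAM but do not follow the naming rule, mostly pseudogenes and antisense RNAs. The highest were ADAM1A, listed at 0.7083 FPKM for MDA-MB-231 and 0.5483 FPKM for LM2, and ADAMTS9-AS2, at 0.4989 and 0.2411 FPKM. Around ADAMTS17, which was not called, all 16 tested protein-coding neighbours within 3 Mb had higher values in LM2 (median log2 fold change 1.16). Of these, 7 were called higher, against 4.67% of all genes tested. ALDH1A3, a retinaldehyde dehydrogenase, had the highest value among them at 2.19. Around ADAMTS7, also on chromosome 15 and not called, 26 of 31 neighbours were higher (median 0.47). Of these 31, 2 were called higher and 2 lower, the latter being KIAA1199 (-4.47) and ARNT2 (-1.81). Around ADAM10 on the same chromosome the median was 0.07. Of all 13911 genes tested, 6326 had higher values in LM2 and 7585 had lower values. The regions in this paragraph were chosen after their values were seen, and no test was run.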
